A study of Rattus norvegicus with 6 samples.

Results

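Heat shock proteins and chaperones of the rat kidney were compared between congenic and Dahl salt-sensitive (S) rats. The group lists 10 genes: the small heat shock proteins Hspb1, Hspb8 and Cryab, the HSP70 family genes Hspa8, Hspa4 and Hsph1, the co-chaperone Dnajb1, the chaperone Hsp90aa1, the mitochondrial chaperonin Hspd1 and the endoplasmic reticulum (ER) chaperone Hspa5. Its members are the probe sets (groups of short probes for 1 transcript) that the array annotation gives to exactly 1 of these symbols, which were 11 of the 31042 probe sets tested. They covered 8 of the 10 genes, out of 14217 genes measured. Hspa8 has 1 probe set and Hsp90aa1 has 2, but each of these 3 is shared with another gene symbol in the annotation, so neither gene is described here.

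Kidney RNA of 6 male rats was hybridised to 1 Affymetrix Rat Expression 230 2.0 array per rat, 3 from the congenic strain S.LEW(10)x12x2x3x5 and 3 from the S strain. S rats are inbred, become hypertensive on salt and lose protein in the urine. The congenic strain is known to hold a LEW (Lewis) segment of chromosome 10. Outside that segment it is meant to share the S genome, which was not checked here. Rats of both groups were born on the same day, weaned at 30 days, kept with 1 rat of each strain to a cage, fed a diet with 0.3% salt and killed at 53 days. The study is concerned with endosomal recycling and proteinuria, and the chaperones are read here as 1 group of transcripts in the contrast of its strains.

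Chaperones bind unfolded or partly folded proteins and keep them from aggregating. Small heat shock proteins hold such clients without using ATP, HSP70 proteins fold them in cycles of ATP use that J-domain proteins start and nucleotide exchange factors end, and HSP90 and chaperonins act on selected clients. Transcription of many of these genes is driven by heat shock factor 1 (HSF1), which binds inverted repeats of the unit nGAAn in promoters, while Hspa5 is a classic target of the unfolded protein response through the ER stress element. In the kidney, chaperones are known for their response to ischaemia and to the high salt and urea of the medulla, where Cryab and Hspb1 are abundant.

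The promoters of the members are shown here because they carry the elements that define how this group is known to be regulated. RefSeq promoters of the rat assembly GRCr8, from 250 bases before to 50 bases after the start of transcription, were held for 8 of the 10 genes. They were searched for the 8-base heat shock cores GAANNTTC and TTCNNGAA, which are each their own reverse complement and may overlap, and on both strands for the ER stress element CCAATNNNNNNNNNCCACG. At least 1 heat shock core was present in 6 of the 8, as in 15.9% of all 33469 promoters, and 2 or more in 5 of the 8, as in 2.28% of all. The ER stress element was present in 1 of the 8, Hspa5, and in 0.0657% of all promoters. The Hspa4 promoter window held neither. For each measured gene with a match before the start, the stretch nearest to the start is given from 5′ to 3′ on the gene's strand. Matches that end before the start are in capitals. Dnajb1 has 1 more core, which ends after the start and is not marked. Hsph1 has 1 more stretch with a core farther from the start, which is not shown, and neither are those of Hspa8, which has no probe set of its own. That of Hspb1 lies at chr12:26432391-26432442 (minus strand), that of Hspb8 at chr12:45837273-45837304 (plus), that of Hsph1 at chr12:10427320-10427356 (plus), that of Dnajb1 at chr19:41431142-41431164 (minus), that of Hspd1 at chr9:64084250-64084287 (minus) and that of Hspa5 at chr3:38452961-38453003 (plus).
Hspb1: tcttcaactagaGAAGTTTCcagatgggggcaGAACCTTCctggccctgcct
Hspb8: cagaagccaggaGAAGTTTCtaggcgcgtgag
Hsph1: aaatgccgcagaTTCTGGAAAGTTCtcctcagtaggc
Dnajb1: tcgggaggggcgGAAGGTTCtgg
Hspd1: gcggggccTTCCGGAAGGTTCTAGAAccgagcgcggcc
Hspa5: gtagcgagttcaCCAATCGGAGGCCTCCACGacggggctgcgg

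Values are on a log2 scale, with array medians from 7.47 to 7.505, and precision is limited by the 3 rats per group. RNA quality was read from the array's controls for the beta-actin and Gapdh transcripts, as the 3′ value minus the 5′ value, which averaged 1.12 ± 0.13 in congenic and 1.79 ± 0.28 in S rats (log2, SD, n = 3 each, exact two-sided permutation p = 0.1, the smallest that 3 against 3 allow). The array of S rat 2 stood apart, with a value of 2.10 and the lowest correlations with congenic arrays. Every congenic rat lay below every S rat in this control difference, so a term for it in the model is largely confounded with strain. With that term the standard error grew at every member probe set, and 0 of the 31042 probe sets passed. Changes given with the RNA quality term are to be read with this limit. The marker genes of the proximal tubule, thick ascending limb and collecting duct were all measured well above the lower quartile of the arrays (5.88 to 5.96) as list means, while those of striated muscle, a possible contaminant rich in Hspb genes, lay at 5.21 to 5.42 in congenic and 5.25 to 5.41 in S rats. Proximal tubule markers, as a mean over 8 genes, were higher in congenic (13.1 to 13.3) than in S rats (12.8 to 13.0) with no overlap, a difference of 0.26. That mean rests on Slc5a2 (log2 change 1.67), and without this gene, left out after the values were seen, the difference was 0.05 and the groups overlapped. Markers of the distal convoluted tubule stood at 10.4 in congenic rats, against 10.5, 8.09 and 9.93 in S rats 1 to 3, and those of the podocyte at 9.48, 9.32 and 9.32 in congenic rats, against 9.68, 7.75 and 8.56 in S rats. Of 7 leukocyte probe sets 3 were called higher in congenic rats, those of Ptprc (log2 change 0.84), Lyz2 (0.35) and Cd74 (0.27). The list median was 0.29, or 0.49 with RNA quality in the model. The called Ptprc probe set is the dimmer one, and the brighter was at 0.32 (limma, adjusted p = 0.0537). At their brightest probe sets Cd3e was at -0.03 and Cd68 at 0.06. As a mean over 5 genes, leukocyte markers overlapped between congenic (10.40 to 10.55) and S rats (10.19 to 10.43). The part of these differences in the chaperone results was not tested.

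Of the chaperone probe sets, 1 fell in congenic kidneys, that of Hspb8, and none rose (3.47% of all probe sets were called higher). This is 1 of 11 probe sets (9.09%), against 6.00% of all probe sets called in either direction and 2.53% called lower (limma, Benjamini-Hochberg adjusted p under 0.05), so the share of members is near the background. The other 7 genes did not pass at any probe set, and their log2 changes lay between -0.28 and 0.37. Over the 11 the median log2 change was -0.06, against -0.02 over all probe sets. In 4 of the 11 the groups did not overlap, with congenic lower each time, against 31.2% of all probe sets in either direction and 18.4% with congenic lower, and 12.7% of all had congenic higher. An unadjusted p under 0.05 stood at 5 of the 11, against 25.4% of all. The background holds many dim probe sets. In limma on probe sets from percentile 40 of mean level upward, it stood at 5 of 10 members, against 6357 of 18625 of all.

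**Figure D1:**
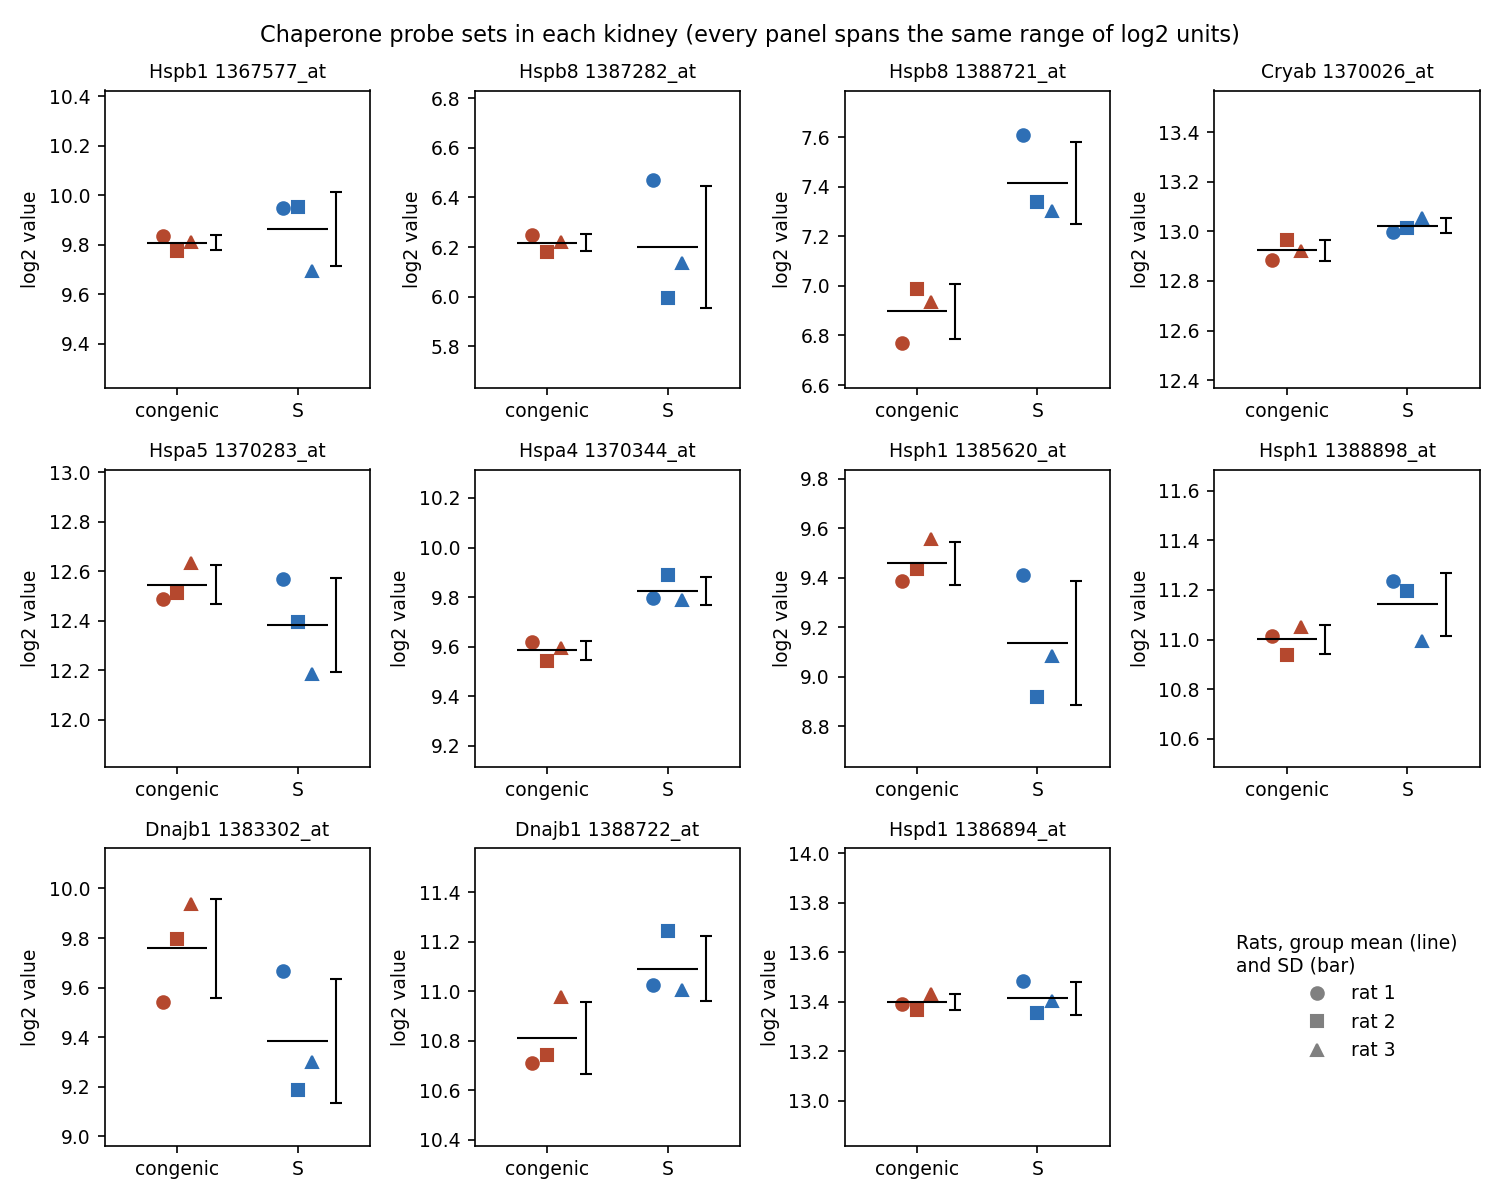
Log2 value of each of the 11 chaperone probe sets (y axis, the same span in every panel) in 3 congenic and 3 S kidneys (x axis). Symbols mark rats, lines group means and bars the SD. The groups are apart at Hspb8 1388721_at, Cryab, Hspa4 and Dnajb1 1388722_at, with congenic lower, and overlap in the other 7 panels.

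Among the small heat shock proteins, Hspb8, which works with the co-chaperone Bag3 in the autophagic removal of misfolded proteins, was the member with the largest change. Its probe set 1388721_at stood at 6.77, 6.99 and 6.93 in congenic rats 1 to 3, against 7.61, 7.34 and 7.30 in S rats 1 to 3 (log2). Every congenic rat lay below every S rat, and S rat 1 was the highest of all. The mean level over all arrays, 7.16, lay below the array medians (7.47 to 7.505), and no detection call was used. The log2 change was -0.52 ± 0.10 (SE), a 0.70-fold level with a 95% interval of the log2 change from -0.75 to -0.29 (limma, adjusted p = 0.0305). It was -0.56 without S rat 2 (adjusted p = 0.0371) and -0.42 without S rat 1 (adjusted p = 0.0134). Of all 31042 probe sets, 968 passed without S rat 2 and 4752 without S rat 1, against 1862 in the main fit. The call was lost without congenic rat 1 (adjusted p = 0.0756), congenic rat 2 (adjusted p = 0.10), congenic rat 3 (adjusted p = 0.13) or S rat 3 (adjusted p = 0.0883), and the log2 changes then lay between -0.58 and -0.46. With the 3′ to 5′ control difference as an RNA quality term in limma's model, the log2 change was -0.82 ± 0.17 (SE, adjusted p = 0.45). In whole kidney, fewer cells of a type and less RNA per cell cannot be told apart.

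The second Hspb8 probe set, 1387282_at, was not called. It stood at 6.25, 6.18 and 6.22 in congenic rats, against 6.47, 5.99 and 6.14 in S rats (log2). The congenic rats lay inside the range of the S rats. Its log2 change was 0.02 ± 0.11 (SE), with a 95% interval from -0.24 to 0.28, so the intervals of both probe sets do not overlap. Leaving out 1 rat gave values from -0.09 to 0.15, and the RNA quality term gave -0.37 (adjusted p = 0.75), the sign of the first probe set. At this level, close to the lower quartile of the arrays, no detection call was used.

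Hspb1, which encodes HSP27, a chaperone that also binds actin, was at 9.84, 9.78 and 9.81 in congenic rats, against 9.95, 9.95 and 9.69 in S rats (log2). S rat 3 was below all congenic rats and the other S rats above them. The log2 change of -0.06 had a 95% interval from -0.25 to 0.14.

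Cryab, which encodes alpha-B-crystallin, stood at 12.88, 12.97 and 12.92 in congenic rats, against 13.00, 13.02 and 13.06 in S rats (log2). The groups were apart, by a small step. The log2 change of -0.10 ± 0.06 (SE) did not pass (limma, adjusted p = 0.37), and its 95% interval ran from -0.24 to 0.04. Markers of the collecting duct and inner medulla, a site of high Cryab, overlapped between congenic (10.45 to 10.59) and S rats (10.55 to 10.69) as a mean over 6 genes, whose members differed in sign. At their brightest probe sets Akr1b1 (log2 change -0.43) and Aqp2 (-0.12) were lower in every congenic rat than in every S rat. The groups overlapped at Slc14a2 (-0.43), Avpr2 (-0.03), Aqp3 (0.17) and Scnn1g (0.29). With the RNA quality term Akr1b1 was at 0.29, Slc14a2 at 0.22 and Aqp2 at -0.14. Of the 13 probe sets of this list 1 was called lower, at Slc14a2 (-0.55, adjusted p = 0.0464), and 1 higher, at Scnn1g (0.52, adjusted p = 0.0321). The part of these genes in the Cryab values was not tested.

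Of the HSP70 family, Hspa4 came nearest to the threshold after Hspb8. It encodes a protein of the HSP110 class, which acts as a nucleotide exchange factor for HSP70. It was at 9.62, 9.54 and 9.59 in congenic rats, against 9.80, 9.89 and 9.79 in S rats (log2). The groups did not overlap and the spread within each was narrow, with SDs of 0.04 in congenic and 0.06 in S rats. The log2 change of -0.24 ± 0.06 (SE), a 0.85-fold level, missed the threshold (limma, adjusted p = 0.0620). Without S rat 2 it was -0.21 (adjusted p = 0.13), and with the RNA quality term -0.10. Hspa4 is the only one of the 8 genes on chromosome 10, the chromosome of the congenic segment. In the GRCr8 gene order 937 genes lie between it and Rffl, the gene known from work on this segment, and the limits of the segment were not placed here.

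Hsph1 (HSP105), the other HSP110 protein, had probe sets that pointed in opposite directions. At 1388898_at it stood at 11.01, 10.94 and 11.05 in congenic rats, against 11.24, 11.19 and 10.99 in S rats (log2). Only S rat 3 fell within the congenic range, and the log2 change was -0.14 ± 0.08 (SE). At 1385620_at the values were 9.39, 9.43 and 9.56 in congenic rats, against 9.41, 8.92 and 9.08 in S rats (log2). S rats 2 and 3 were below all congenic rats and S rat 1 was not. The log2 change was 0.32 ± 0.12 (SE, limma, adjusted p = 0.14), and it was 0.21 when S rat 2 was left out. The RNA quality term turned it to -0.16. Without S rat 1 it was 0.46 and passed (adjusted p = 0.0108), in a fit where 4752 of all 31042 probe sets passed, against 1862 in the main fit.

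Dnajb1 (HSP40), the J-domain protein that starts the ATP cycle of cytosolic HSP70, showed the same kind of split. At 1388722_at it stood at 10.71, 10.74 and 10.98 in congenic rats, against 11.03, 11.24 and 11.01 in S rats (log2). The groups were apart, with S rat 2 the highest. The log2 change was -0.28 ± 0.10 (SE, limma, adjusted p = 0.11). At 1383302_at the values were 9.54, 9.80 and 9.94 in congenic rats, against 9.67, 9.19 and 9.30 in S rats (log2), and here S rat 2 was the lowest. The log2 change was 0.37 ± 0.14 (SE, limma, adjusted p = 0.14). It was 0.28 when S rat 2 was left out, and the RNA quality term turned it to -0.19. Without S rat 1 it was 0.52 and passed (adjusted p = 0.0205), in a fit where 4752 of all 31042 probe sets passed, against 1862 in the main fit.

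Hspd1 (HSP60), the chaperonin of the mitochondrial matrix, was at 13.39, 13.37 and 13.43 in congenic rats, against 13.48, 13.35 and 13.40 in S rats (log2). The groups lay on top of each other. Its log2 change of -0.02 had a 95% interval from -0.16 to 0.13.

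Hspa5 (BiP, GRP78), the HSP70 protein of the ER and a sensor of unfolded proteins there, stood at 12.49, 12.51 and 12.63 in congenic rats, against 12.57, 12.39 and 12.19 in S rats (log2). S rat 1 was within the congenic range, S rats 2 and 3 below it. The log2 change of 0.16 ± 0.10 (SE) did not pass (limma, adjusted p = 0.36), with a 95% interval from -0.07 to 0.39. It was 0.06 when S rat 3 was left out and 0.25 without S rat 1. With array weights it was 0.30 and passed (limma, adjusted p = 0.0390), as did 6077 of all 31042 probe sets. These weights were 2.43 for congenic rat 3 and 2.30 for S rat 3, against 0.40 to 0.96 for the other rats. Congenic rat 3 held the highest Hspa5 value and S rat 3 the lowest. The RNA quality term gave 0.06.

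**Figure D2:**
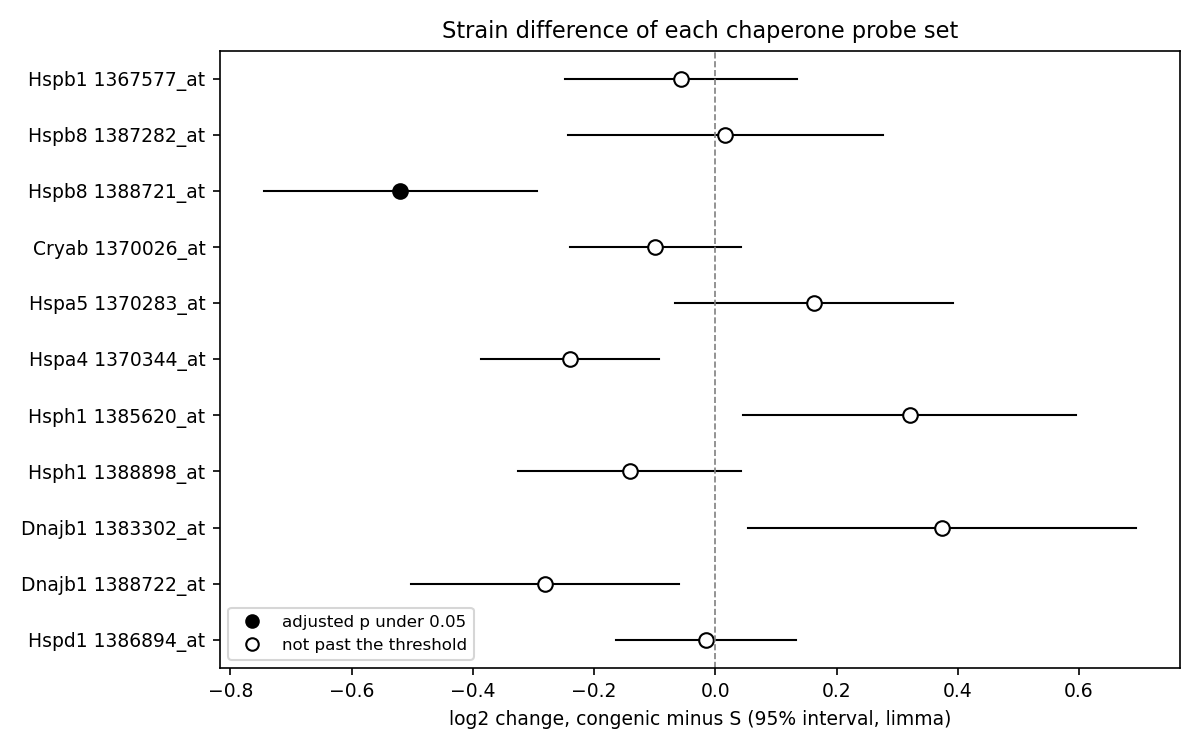
Log2 change, congenic minus S (x axis), with its 95% interval from limma for each of the 11 chaperone probe sets (y axis). The filled point, Hspb8 1388721_at at -0.52, is the only one with an adjusted p under 0.05, and the points of Hsph1 and Dnajb1 lie on either side of 0.

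The disagreement between probe sets of one gene was measured within each rat, which removes differences in scale between arrays. This comparison was chosen after the values were seen. For Dnajb1 the brighter probe set exceeded the dimmer by 1.17, 0.95 and 1.04 in congenic rats, against 1.36, 2.06 and 1.71 in S rats (log2). For Hsph1 the differences were 1.63, 1.50 and 1.49 in congenic rats, against 1.82, 2.28 and 1.91 in S rats. For Hspb8 they were 0.52, 0.81 and 0.71 in congenic rats, against 1.14, 1.35 and 1.17 in S rats. In all 3 genes the difference was smaller in every congenic rat, and S rat 2 had the largest, followed by S rat 3 and S rat 1. The 3′ minus 5′ control difference put the S rats in the same order, at 1.56, 2.10 and 1.70 in S rats 1 to 3, above 1.26, 1.01 and 1.08 in congenic rats 1 to 3. Among congenic rats the control difference was largest in rat 1, then rat 3, then rat 2. Dnajb1 had this order, Hsph1 had rat 2 before rat 3, and Hspb8 had the reverse order.

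The difference between strains in this measure was -0.66 for Dnajb1, -0.54 for Hspb8 and -0.46 for Hsph1, each with an exact two-sided permutation p = 0.1 (n = 3 each), the smallest possible. Without S rat 2 it was -0.48, -0.47 and -0.33 in the same order of genes. Such a separation was common: among 3061 genes with exactly 2 probe sets, the groups did not overlap in 41.1%, and with the congenic difference smaller in 31.7%. The part of RNA quality in these differences was not tested.

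**Figure D3:**
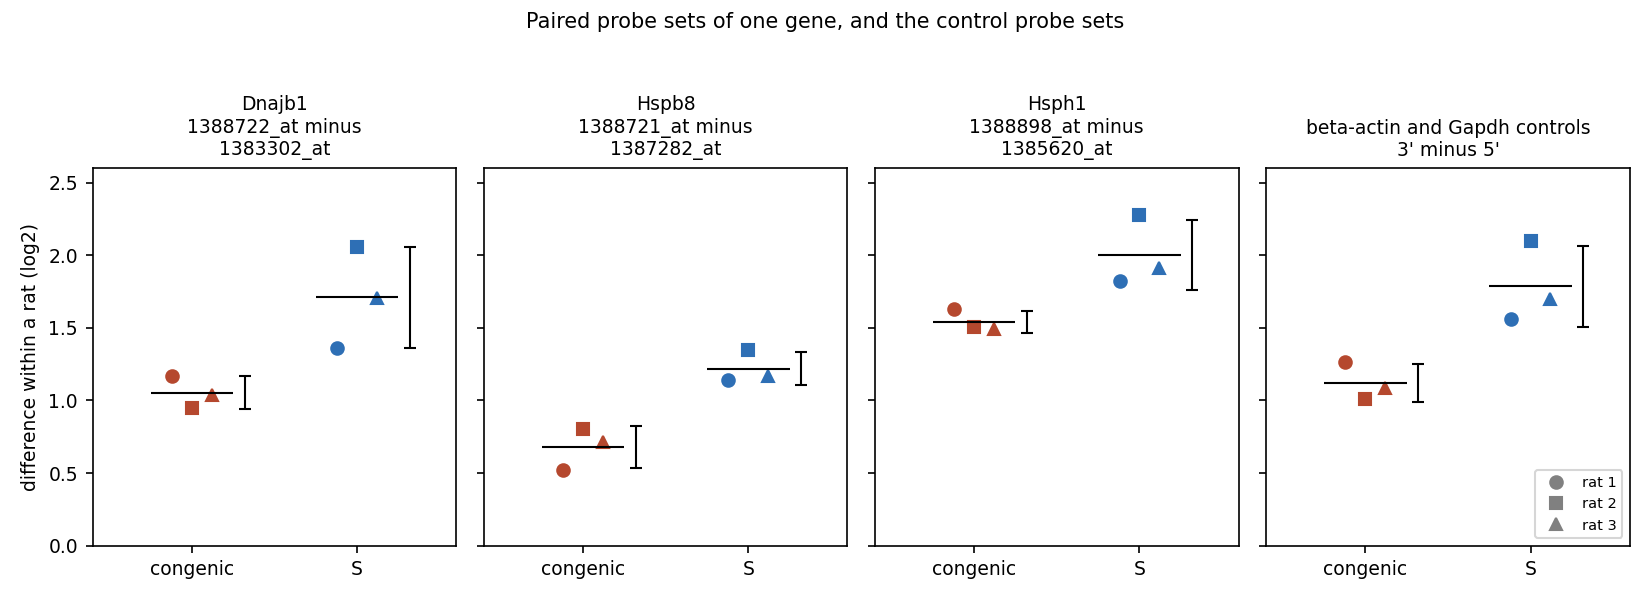
Difference within a rat (y axis, log2) between the brighter and the dimmer probe set of Dnajb1, Hspb8 and Hsph1, and between the 3′ and 5′ control probe sets, in 3 congenic and 3 S kidneys (x axis). Lines are means and bars the SD. In all 4 panels the congenic rats lie below the S rats, and S rat 2 is the highest.

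The probe sets most like Hspb8 1388721_at over the 6 arrays, by the root mean square distance between values centred on their own mean, were those of Trps1 (distance 0.05), Dtna (0.07) and Dennd1b (0.07). Trps1 stood at 9.60, 9.75 and 9.76 in congenic rats, against 10.34, 10.17 and 10.19 in S rats (log2). Trps1 and Dtna fell, with log2 changes of -0.53 and -0.56 (limma, adjusted p = 0.0201 and adjusted p = 0.0179), and Dennd1b stood at -0.38 (adjusted p = 0.0519). All 3 were picked for their likeness to a probe set that fell. Their direction and size follow from that choice and are no separate result.

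The wider chaperone network was read through 9 further lists with 99 measured genes and 141 probe sets. Of these, 5 rose and 5 fell (7.09%, against the 6.00% of all probe sets), and the median log2 change was 0.0057, against -0.02 over all. Under quantile normalization the split was 7 higher and 4 lower. The groups did not overlap in 59 of the 141 (41.8%, against 31.2% of all, which include many dim probe sets). In limma on probe sets from percentile 40 of mean level upward, 44 of 123 had an unadjusted p under 0.05, against 6357 of 18625 of all. The share without overlap was not counted at that level. Of the 5 rises, 4 were at a probe set that is not the brightest of its gene, and of the 5 falls, 1.

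Among the other small heat shock proteins, 1 of 7 probe sets fell, that of Hspb6 (HSP20), a small heat shock protein of muscle. It stood at 9.78, 9.63 and 9.63 in congenic rats, against 10.11, 10.11 and 10.05 in S rats (log2). The groups were far apart relative to the spread, with a log2 change of -0.41 ± 0.07 (SE, limma, adjusted p = 0.0234), and it was -0.32 with the RNA quality term. Markers of smooth muscle, by the mean log2 value of 5 genes, overlapped between congenic (9.71 to 9.92) and S rats (9.05 to 9.76). All 6 probe sets of this list had a higher mean in congenic rats, and none was called. The list median log2 change was 0.33, or -0.31 with RNA quality in the model. The 5 adipocyte markers did not overlap and were lower in congenic (8.49 to 9.001) than in S rats (9.04 to 9.71), with 1 of 5 called lower. The part of these muscle and adipocyte markers in the Hspb6 and Hspb8 results was not tested.

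Of the HSP70 proteins outside the members, 1 of 15 probe sets fell. It belongs to Hspa9 (mortalin), the HSP70 protein of mitochondria, and stood at 7.65, 7.55 and 7.51 in congenic rats, against 7.90, 7.83 and 7.88 in S rats (log2 change -0.30, adjusted p = 0.0412). Of the other 3 Hspa9 probe sets, the brightest was at a log2 change of 0.07 and another at 0.64 (adjusted p = 0.0537), so their signs differed. Once RNA quality was in the model all 4 were negative, from -0.32 to -0.11 with SEs from 0.14 to 0.16, and none passed. Hspa1a, the classic heat-inducible HSP70 gene, did not pass (log2 change -0.13, adjusted p = 0.43), and Hspa1b, its near-identical copy, had no probe set of its own.

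Of 28 probe sets of other J-domain proteins, 1 rose and 2 fell. Dnaja4 rose at 1395572_at, which stood at 7.68, 7.98 and 8.13 in congenic rats, against 7.29, 6.12 and 6.77 in S rats (log2 change 1.20 ± 0.26 SE, adjusted p = 0.0373). S rat 2 was again the lowest. The brighter Dnaja4 probe set was at -0.04. Once RNA quality was in the model, 1395572_at stood at -0.10. Dnajb2, a neuronal J-domain protein, fell by 0.34 at its brighter probe set (adjusted p = 0.0418), where the dimmer was at 0.07, and Dnajc21, a J-domain protein of ribosome assembly, fell by 0.27 (adjusted p = 0.0491). The RNA quality term gave -0.08 for this Dnajb2 probe set and -0.15 for Dnajc21.

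None of 17 probe sets of HSP90 and its co-chaperones passed in limma (8 had an unadjusted p under 0.05), and the one with the smallest p was at the HSP70-binding co-chaperone St13 (log2 change -0.24, adjusted p = 0.0556), whose brighter probe set was at 0.19. None of 8 probe sets of nucleotide exchange factors passed (2 at an unadjusted p under 0.05), with Bag6 nearest (0.35, adjusted p = 0.0520) and its brighter probe set at -0.09. None of 12 probe sets of mitochondrial chaperones and proteases passed (5 at an unadjusted p under 0.05). Clpb, a disaggregase, was nearest there, with all 3 of its probe sets lower in every congenic rat than in every S rat (log2 changes of -0.30, -0.19 and -0.21, adjusted p from 0.0620 to 0.13). Of the heat shock factors, none of 7 probe sets passed (3 at an unadjusted p under 0.05), and Hsf2 had values of both signs, from -0.40 to 0.28.

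In the chaperonin TRiC, which folds actin and tubulin, and its partner prefoldin, 1 of 17 probe sets rose. It belongs to the subunit gene Cct5 and stood at 10.95, 10.92 and 10.95 in congenic rats, against 10.61, 10.08 and 10.25 in S rats (log2 change 0.63, adjusted p = 0.0322). The brighter Cct5 probe set was at -0.07 and the first at 0.17 with the RNA quality term.

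ER chaperones and genes of the unfolded protein response had 3 rises and 1 fall among 30 probe sets, with a list median of 0.01. Serpinh1 (HSP47), the collagen-specific chaperone, had the smallest p of all chaperone genes. Its brightest probe set, 1371310_s_at, was at 12.13, 12.28 and 12.29 in congenic rats, against 11.64, 11.50 and 11.68 in S rats (log2). The groups were well apart, and the log2 change was 0.63 ± 0.08 (SE, limma, adjusted p = 0.0163), or 0.38 with the RNA quality term. Its dimmer probe set had the same sign (0.18, adjusted p = 0.14).

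Hyou1, an ER nucleotide exchange factor, rose by 0.71 at its dimmer probe set (adjusted p = 0.0207), where the brighter was at -0.02. Canx, the glycoprotein chaperone calnexin, rose by 1.19 at its dimmest probe set (adjusted p = 0.0320), and its other 2 were at 0.35 (adjusted p = 0.0531) and -0.07. Sil1, the nucleotide exchange factor of BiP itself, stood at 9.30, 9.20 and 9.19 in congenic rats, against 9.62, 9.75 and 9.51 in S rats, and fell by 0.40 (adjusted p = 0.0340). With the RNA quality term Hyou1 was at 0.46, Canx at 0.14 and Sil1 at -0.16, and none of the 10 called probe sets passed.

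**Figure D4:**
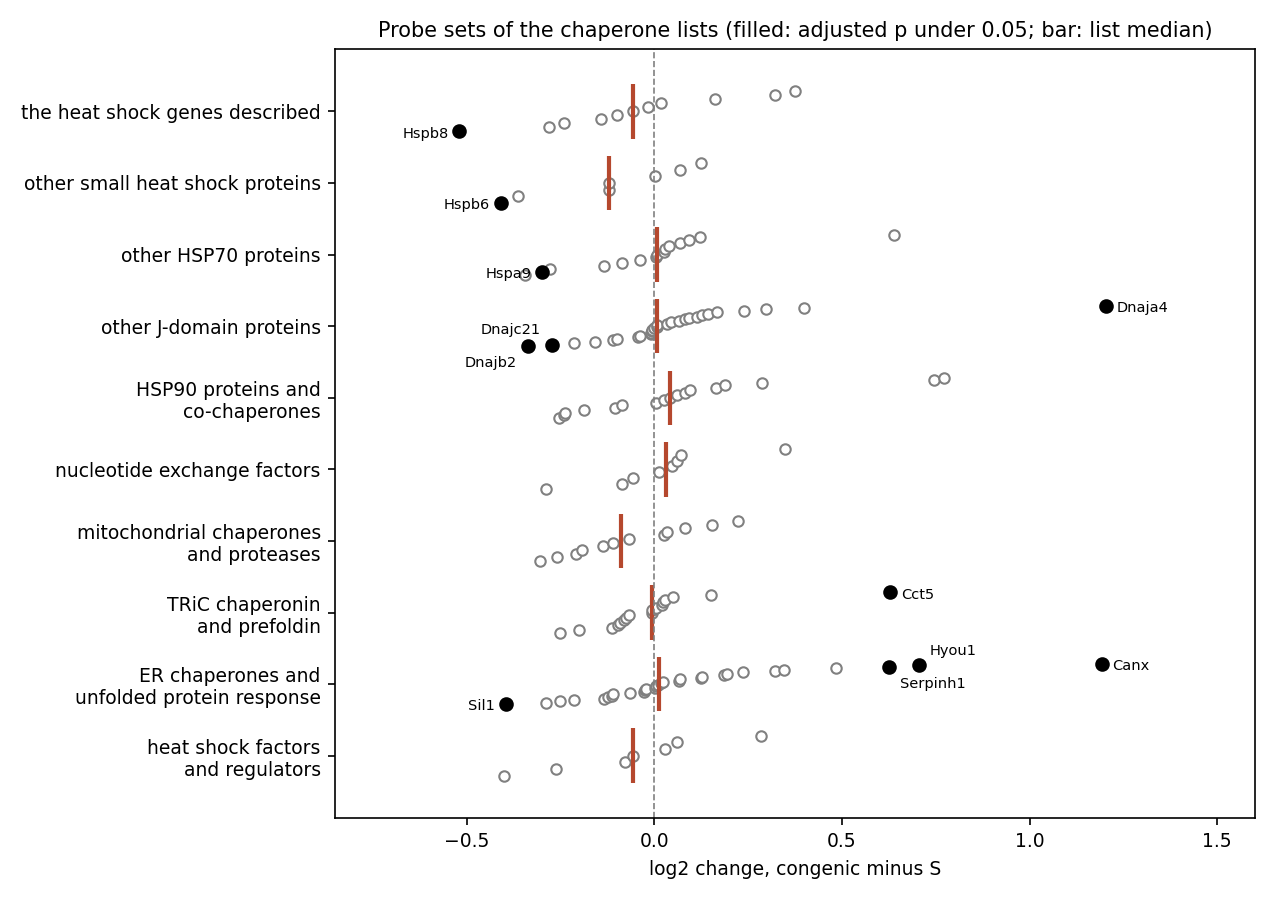
Log2 change, congenic minus S (x axis), of every probe set of the heat shock genes described and of 9 further chaperone lists (y axis). Filled points have an adjusted p under 0.05 and carry their gene's symbol, and vertical bars are list medians. The medians lie between -0.12 and 0.04, and Dnaja4 and Canx lie farthest from 0.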

How the data were processed

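The deposited table holds log2 probe set values from the authors, judged from the values, which run from 3.76 to 15.1. The method of summary and normalization is not given in the sources used here. Columns were matched by sample, and groups and rat numbers by title. After 57 control probe sets were left out, 31042 entered limma (version 3.58.1, run in R 4.3.3, moderated by eBayes, two-sided, Benjamini-Hochberg over all, adjusted p under 0.05, 8.49 total degrees of freedom). Names came from the platform annotation and were brought up to date through Entrez identifiers in the GRCr8 RefSeq table (20758 of 20826 with 1 symbol matched). No 2 arrays were identical. The fit was run on simulated data, made of independent normal values with known changes added. These held no RNA quality difference between groups, so that run cannot speak to its effect on the calls. Named genes were all members, up to 3 called genes of each other list (otherwise the one with the smallest p), and the 3 nearest patterns, and other probe sets of a named gene are given beside it. Sil1, called in the ER list behind 3 genes with smaller p, was named outside this rule. Hspa1a was chosen after its values were seen. The members, lists and tests were chosen with earlier results of these data known. Alternatives were other normalizations, a filter, trend, robust eBayes, array weights, a block for rat number, each rat left out in turn, the brightest probe set per gene, an RNA quality covariate and another threshold. Figures used matplotlib 3.10.9.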

Additional observations from a re-analysis of the deposited data

How the results depend on the processing

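Under quantile normalization, median centring and robust eBayes every member kept its direction and its side of the threshold. The count of called members was 1, and it was 2 with the filter, 2 with the intensity trend and 2 at an adjusted p of 0.1, where Hspa4 joined Hspb8. It was 5 with array weights, where 3 were higher, 0 with the replicate block and 0 with the RNA quality covariate (5 and 1 below an unadjusted p of 0.05), and 0 to 3 when rats were left out in turn. It was 0 without congenic rat 1, 2 or 3 or S rat 3 (4, 2, 3 and 4 below an unadjusted p of 0.05). For the other chaperone lists the count of 10 became 20 with the intensity trend, 34 with array weights, 3 with the replicate block, 0 with the RNA quality covariate (6 below an unadjusted p of 0.05), 5 with the brightest probe set per gene and 32 at an adjusted p of 0.1, and 0 to 29 when rats were left out. It was 0 without congenic rat 2, congenic rat 3 or S rat 3 (35, 35 and 46 below an unadjusted p of 0.05), and 29 without S rat 1. For all probe sets the count of 1862 became 6077 with array weights, 658 with the replicate block, 0 with the RNA quality covariate (2292 below an unadjusted p of 0.05), 666 with the brightest probe set per gene and 4455 at an adjusted p of 0.1, and 0 to 4752 when rats were left out (0 without congenic rat 2 or S rat 3, with 5575 and 6968 below an unadjusted p of 0.05). With the RNA quality covariate the sign turned for Dnajb1 1383302_at (-0.19), Hsph1 1385620_at (-0.16), Hspb8 1387282_at (-0.37) and Hspb1 (0.0538), and with array weights for Hspb1 (0.0443) and Hspd1 (0.00057). When rats were left out, Hspb8 1387282_at ranged from -0.0865 to 0.15 and Hspd1 from -0.0452 to 0.0195, with signs of both kinds. The cause was not tested. Cages held 1 rat of each strain, but whether equal rat numbers mark cage mates is not known here. The main fit has no term for cage. Deviations from the group means correlated at -0.01, -0.18 and -0.14 between equally numbered rats. The highest value was 0.38, between congenic rat 2 and S rat 3. With 3 rats per group these values cannot decide on a pairing. With the replicate block Hspb8 1388721_at had an adjusted p of 0.0648. The RNA quality difference lay between -0.78 and -0.51 when rats were left out.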
